A study of Gallus gallus with 28 samples.

Results

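HMOX1, BACH1, ALAS1 and FTH1 are 4 genes that mark the handling of haem and of the iron it carries. They were found on the arrays as every probe set that the platform table pairs with one of these symbols and no other. That gave 10 of 38535 probe sets, with 1 for HMOX1, 5 for BACH1, 1 for ALAS1 and 3 for FTH1. All 10 were measured on all 28 arrays and none was filtered out.

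Haem is made in steps that begin and end in the mitochondrion, and ALAS1 catalyses the first and rate-limiting step outside red blood cells. HMOX1, the inducible haem oxygenase, opens the haem ring to biliverdin, carbon monoxide and iron, and ferritin, of which FTH1 is the heavy chain, stores the iron. BACH1 is a repressor that pairs with small MAF proteins on DNA elements of HMOX1 and other genes. In mammals haem binds BACH1 and takes it off these elements, which the activator NRF2 (gene NFE2L2) can then occupy.

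The cells were DT40, a chicken B-cell lymphoma line with a surface B-cell receptor of the IgM class, and 3 lines derived from it. B7.10 is DT40 in which the gene of Btk, a kinase that relays signals from that receptor, was knocked out. B41-13 is the knockout given human BTK, and B46-5 the knockout given kinase inactive human BTK. Each genotype was represented by a single named line, so a difference between lines cannot be told apart from one between clones. Unstimulated cells were taken at 6 h and 24 h. Stimulated cells, treated with IgM (M4), were taken at 2 h and 6 h. M4 is known as a monoclonal antibody that crosslinks the chicken receptor. For DT40 and B7.10, cultures in 3 different batches of fetal calf serum gave 3 arrays for each of 6 h unstimulated, 24 h unstimulated and 6 h stimulated. The 2 h time of those lines, and every condition of B41-13 and B46-5, had 1 array, all in serum batch 1. According to the series' design text, 10 repeats of an experiment were pooled for an array, so the spread between arrays is that between pools from different sera.

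Values are log2 signals made with RMA. A probe set whose mean lay under 3.98, the level below which 40% of all probe sets fell, was taken as near background. The B-cell markers were present, with 11 of 11 measured ones above that level and CD79B, a chain of the B-cell receptor, at 11.47. Markers of red blood cells, which carry most of a bird's haem, were dim although 9 of 11 lay above that level. The highest was the globin HBA1 at 6.00, and HBAD and HBZ stood at 4.53 and 4.71. Their summed linear signal was 299 to 364 in DT40, 294 to 381 in B7.10, 287 to 349 in B41-13 and 292 to 325 in B46-5, ranges that overlap. The 4 thrombocyte markers also overlapped, at 141 to 216 over all lines, whereas lists of other cell types that differed between lines are given beside the comparisons they touch. The chicken BTK probe set read 9.34 to 10.61 in DT40, 4.70 to 5.30 in B7.10, 5.61 to 5.97 in B41-13 and 5.13 to 5.36 in B46-5. For 5 arrays another label field contradicted the title, and the title was used. They are 6 h stimulated B7.10 in batches 2 and 3, 6 h stimulated B41-13, and B46-5 at 24 h and 6 h stimulated. In the text, a change is called where the limma Benjamini-Hochberg adjusted p over 38382 probe sets is under 0.05.

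The 4 genes spanned the range of the array. The brightest FTH1 probe set had a mean of 13.07 ± 0.16 (SD, n = 28 arrays), HMOX1 9.64 ± 0.92, ALAS1 7.54 ± 0.25 and the brightest BACH1 probe set 6.04 ± 1.03. These are levels of different probe sets, which cannot be ranked as amounts of RNA. The spread of each can be compared with its own range. BACH1 ran from 4.63 to 8.18 over the arrays and HMOX1 from 7.99 to 11.15, while ALAS1 ran from 6.97 to 8.11 and FTH1 from 12.71 to 13.29. Thus the repressor and the haem-degrading enzyme were the members with wide ranges. The other BACH1 probe sets are called the second, the third, the fourth and the fifth by their means of 4.24, 4.03, 3.71 and 2.98, and the other FTH1 probe sets the second and the third by theirs of 12.89 and 12.75.

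**Figure D1:**
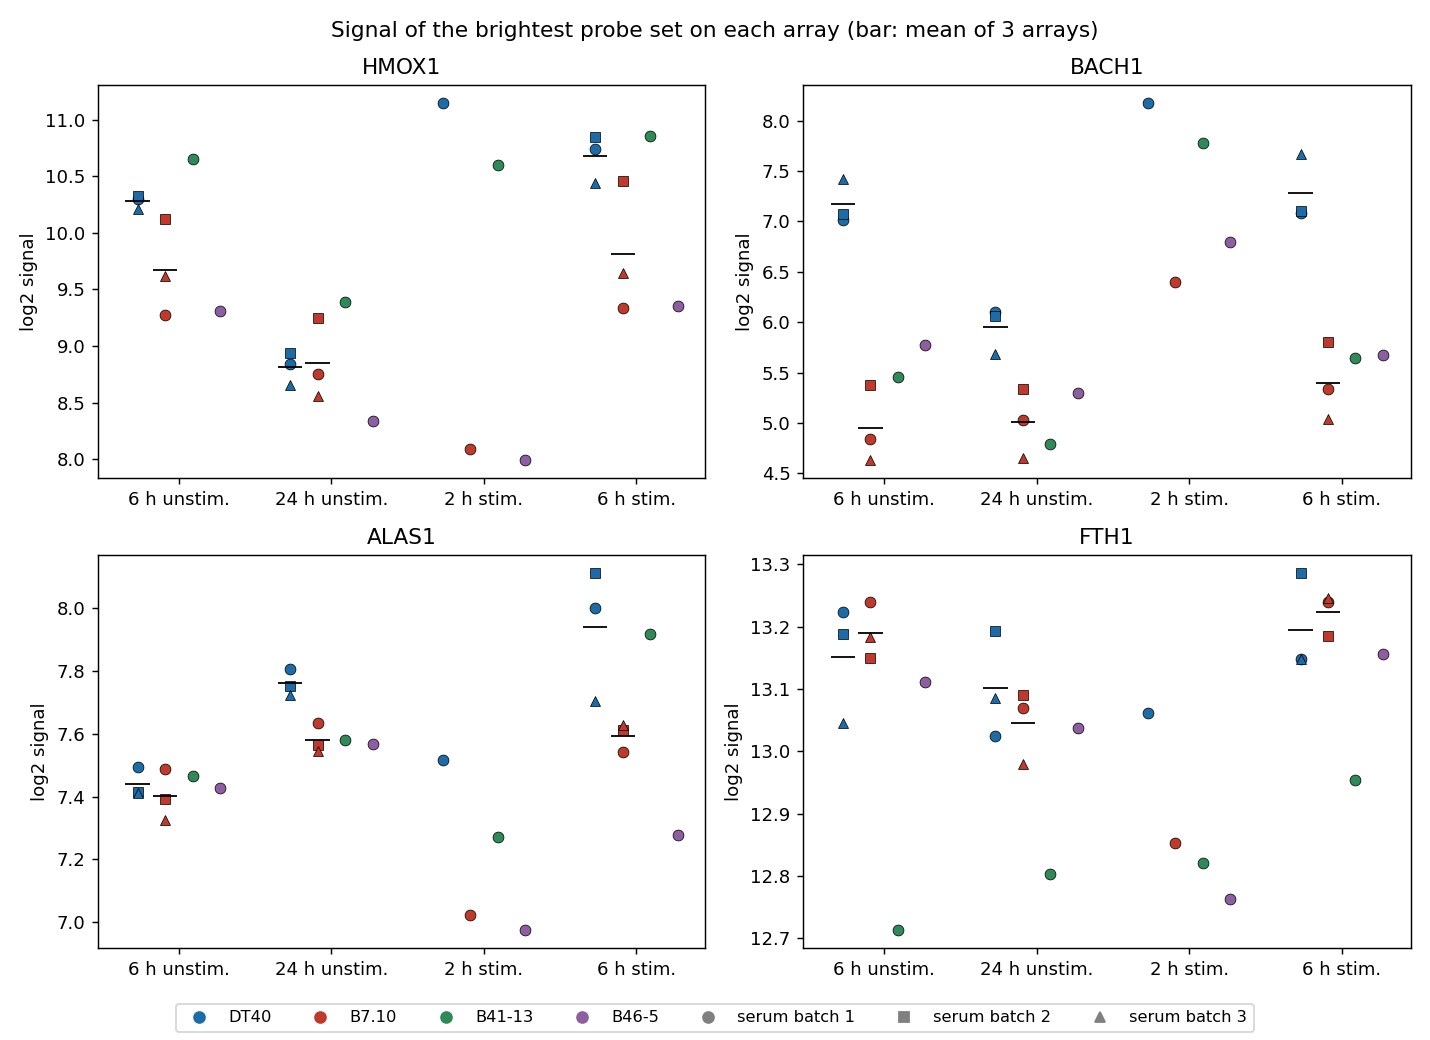
Log2 signal of the brightest probe set of HMOX1, BACH1, ALAS1 and FTH1 on each of 28 arrays, by condition (horizontal axis), line (colour) and serum batch (shape), with bars at the mean of 3 arrays. HMOX1 of all lines was lower at 24 h than at 6 h unstimulated, BACH1 was highest in DT40 in each condition, and each panel has its own vertical scale.

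The comparison of 24 h with 6 h without stimulation asks how the genes follow the length of culture. HMOX1 fell in DT40 and was lower at 24 h in every one of the 8 pairs of arrays. In DT40 its level at 6 h was 10.30, 10.33 and 10.21 in serum batches 1, 2 and 3, and at 24 h it was 8.84, 8.94 and 8.65. The lowest 6 h array thus lay well above the highest 24 h array. The paired differences were -1.45, -1.39 and -1.56, and the fitted one was -1.47 ± 0.24 log2 (SE, 3 arrays a group; limma, adjusted p = 0.00612), a 2.77-fold fall. Without serum batch 3 the fitted value kept its direction with adjusted p = 0.215. Of all probe sets, 0.573% passed in this comparison, and 0.365% passed as lower. The log2 excess of the 3′ over the 5′ actin control probe set, a sign of RNA quality, also moved, from 0.51, 0.66 and 0.84 at 6 h to 0.78, 0.95 and 0.93 at 24 h in DT40. It was higher at 24 h in all 3 batches. For GAPDH the same excess went from -0.27, -0.16 and -0.14 to -0.12, -0.18 and -0.28, higher at 24 h in batch 1 only. The part of RNA quality in the DT40 changes of HMOX1 and BACH1 was not tested. In bulk samples such as these, fewer cells of a type and less RNA per cell cannot be told apart.

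In B7.10 HMOX1 read 9.27, 10.12 and 9.61 at 6 h and 8.75, 9.24 and 8.56 at 24 h. Here each 24 h array was lower than the 6 h array of its serum, and the groups did not overlap, although the highest 24 h value came within a narrow margin of the lowest 6 h value. The differences were -0.52, -0.88 and -1.06, with a fitted value of -0.82 ± 0.24 (limma, adjusted p = 0.164), so it was not called. When serum batch entered the fit as a block it was called, at the same -0.82 ± 0.17 (limma, adjusted p = 0.0312). In that line 0.232% of probe sets passed without the block. B41-13 went from 10.65 to 9.39 and B46-5 from 9.31 to 8.34, single-array differences of -1.27 and -0.97. Over the 4 lines of serum batch 1 the fall was not called. With 1 of 16 arrays left out it was -1.33 to -0.75 (limma, adjusted p = 0.0293 to 0.34), and 1 of these fits called it. The fall in DT40 exceeded that in B7.10 by 0.65 ± 0.34 log2 (95% interval -0.06 to 1.35; limma, adjusted p = 0.845), a difference that did not pass.

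BACH1, the repressor of HMOX1, also fell in DT40 over the same interval. Its brightest probe set read 7.01, 7.08 and 7.42 at 6 h and 6.10, 6.06 and 5.69 at 24 h. No 24 h array reached the 6 h range. The differences were -0.91, -1.01 and -1.73, and the fitted one was -1.22 ± 0.22 (limma, adjusted p = 0.0151), 2.33-fold. The third probe set fell as well, by 0.63 ± 0.14 (limma, adjusted p = 0.0416), a size that may be understated because its 24 h mean of 3.82 was near background. The other 3 BACH1 probe sets gave -0.07 to -0.31 and did not pass. Serum batch 3 had the widest difference, and without both of its 24 h arrays the brightest probe set gave -1.09 (limma, adjusted p = 0.0765). The call was also lost without DT40's 24 h array of batch 2 or 3, its 6 h array of batch 3, or all of batch 2 or 3, at -1.32 to -0.96 (limma, highest adjusted p = 0.132).

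In B7.10 the same BACH1 probe set read 4.84, 5.38 and 4.63 at 6 h and 5.03, 5.33 and 4.65 at 24 h. The 2 groups overlapped almost fully, and the fitted difference was 0.06 ± 0.22 (95% interval -0.41 to 0.53; limma, adjusted p = 0.945). In B41-13 it went from 5.45 to 4.79 and in B46-5 from 5.77 to 5.29. The difference between the DT40 and B7.10 changes was 1.28 ± 0.32 (95% interval 0.61 to 1.94), with a limma adjusted p of 0.705. In that comparison 0.00521% of probe sets passed, which is 2 of 38382. The change of BACH1 was therefore not shown to differ between the lines.

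ALAS1 moved upward by a small amount and was not called. In DT40 it read 7.49, 7.41 and 7.41 at 6 h and 7.81, 7.75 and 7.72 at 24 h, with no overlap. In B7.10 it read 7.49, 7.39 and 7.32 and then 7.63, 7.57 and 7.54. All 8 pairs had a higher value at 24 h. The fitted differences were 0.32 ± 0.10 in DT40 (limma, adjusted p = 0.151) and 0.18 ± 0.10 in B7.10 (limma, adjusted p = 0.443). FTH1 stayed within a narrow band. Its 3 probe sets gave -0.05 to -0.14 in DT40 and -0.14 to -0.26 in B7.10, and none passed.

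**Figure D2:**
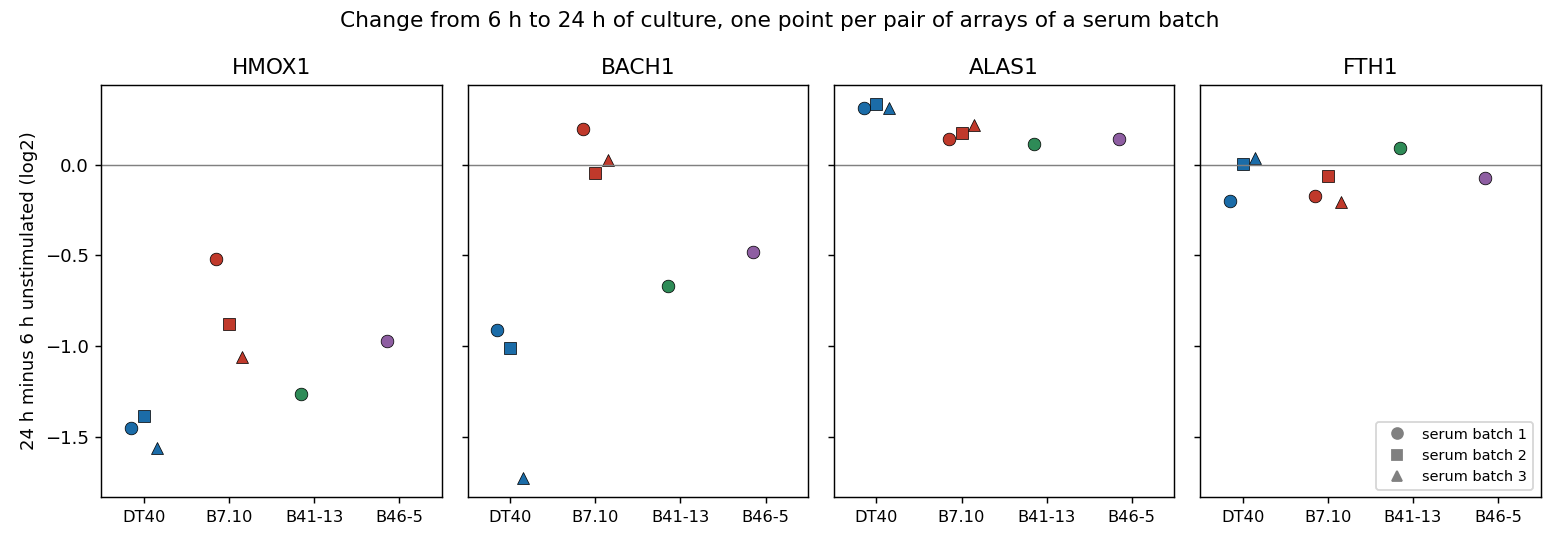
Difference between 24 h and 6 h unstimulated (vertical axis, log2) for the brightest probe set of each gene, with 1 point per pair of arrays of the same line and serum batch and a line at 0. HMOX1 was below 0 in all 8 pairs and ALAS1 above 0 in all 8, while BACH1 was below 0 in DT40, B41-13 and B46-5 and near 0 in B7.10.

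The comparison of B7.10 with DT40 asks how the genes stand in cells without and with Btk. BACH1 was the member with the widest difference, HMOX1 and ALAS1 were modestly lower in B7.10, and FTH1 did not pass. Averaged over the 3 conditions with 3 arrays each, the brightest BACH1 probe set differed by -1.68 ± 0.13 log2 units (limma, adjusted p = 1.76e-08), 3.22-fold lower in B7.10. At 6 h stimulated it read 7.08, 7.1 and 7.67 in DT40 and 5.34, 5.80 and 5.04 in B7.10. With the 6 h and 24 h values above, every B7.10 array lay below every DT40 array of the same condition. Of all probe sets, 13.4% passed and 8.22% passed as lower.

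The difference in BACH1 was -2.22 ± 0.22 at 6 h unstimulated (limma, adjusted p = 3.38e-06), -0.94 ± 0.22 at 24 h (limma, adjusted p = 0.0182) and -1.89 ± 0.22 at 6 h stimulated (limma, adjusted p = 1.69e-05). It was thus called at each time, against 4.83%, 4.44% and 5.4% of probe sets. Within serum batches it ran from -2.79 to -1.70 at 6 h, from -1.07 to -0.73 at 24 h and from -2.63 to -1.30 when stimulated. The 24 h value was -0.90 without the 24 h arrays of serum batch 3 (limma, adjusted p = 0.0848), and single losses of DT40's batch 1 or 2 array, B7.10's batch 3 array or all of batch 1 also ended its call, at -0.89 to -0.77.

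The other BACH1 probe sets mostly pointed the same way at smaller size. The second gave -0.38 ± 0.08 (limma, adjusted p = 0.00143), the third -0.63 ± 0.08 (limma, adjusted p = 1.1e-05) and the fourth -0.38 ± 0.05 (limma, adjusted p = 5.61e-05). The fifth gave 0.06 ± 0.05 and did not pass. In B7.10 the third was near background in each condition, with means of 3.51, 3.57 and 3.91 at 6 h, 24 h and 6 h stimulated. Its difference may therefore be understated. The second was near background in B7.10 when stimulated, at 3.92. The fourth and the fifth were near background by their means in both lines, except the fourth in stimulated DT40 at 4.07, and their differences are not read as sizes. The probe sets of BACH1 therefore disagreed in size, and the dim ones have little room to fall.

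The actin excess, 1 sign of RNA quality, and other markers differed between these lines too. The actin excess was 0.76, 0.90 and 0.95 in B7.10 against 0.51, 0.66 and 0.84 in DT40 at 6 h, and 0.78, 0.59 and 0.76 against 0.48, 0.35 and 0.49 at 6 h stimulated, higher in B7.10 in each batch. At 24 h it was 0.58, 1.35 and 1.07 against 0.78, 0.95 and 0.93. The GAPDH excess was -0.19, -0.10 and -0.10 in B7.10 against -0.27, -0.16 and -0.14 in DT40 at 6 h. When stimulated it was -0.22, -0.27 and -0.28 against -0.27, -0.27 and -0.24. At 24 h the GAPDH values were -0.25, -0.23 and -0.22 against -0.12, -0.18 and -0.28. GAPDH was thus higher in B7.10 in each batch only at 6 h unstimulated. The summed signal of 10 fibroblast markers was 339 to 507 in B7.10 and 546 to 715 in DT40, without overlap over the 10 arrays of each line. Of that list 6 markers were above background and DCN, LUM, THY1 and PDGFRA were not. BGN had the widest range of the list over all arrays, 4.16 to 8.53, so the sum need not reflect the list as a whole. The part of these in the differences of the 4 genes was not tested.

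HMOX1 at 6 h stimulated read 10.74, 10.85 and 10.44 in DT40 and 9.34, 10.46 and 9.65 in B7.10. The highest B7.10 array, that of serum batch 2, was just above the lowest DT40 array, that of batch 3. Over the 3 conditions HMOX1 differed by -0.48 ± 0.14 (limma, adjusted p = 0.0231), 1.39-fold lower in B7.10. That call was lost without B7.10's 6 h array of batch 1, its 24 h array of batch 3, its stimulated array of batch 1 or 3, or all of serum batch 1 or 3, at -0.47 to -0.30. It was also lost without both 24 h arrays of batch 3, at -0.46 (limma, adjusted p = 0.0504).

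By condition, HMOX1 differed by -0.61 ± 0.24 at 6 h unstimulated (limma, adjusted p = 0.188), by 0.04 ± 0.24 at 24 h (limma, adjusted p = 0.967) and by -0.86 ± 0.24 at 6 h stimulated (limma, adjusted p = 0.0378). In the fit with serum as a block the 6 h unstimulated difference was called too (limma, adjusted p = 0.0337), as it was without serum batch 2, at -0.81 (limma, adjusted p = 0.0145). The stimulated difference was not called without batch 1 or 3 or without either line's stimulated array of batch 1, DT40's of batch 2 or B7.10's of batch 3, at -0.90 to -0.60 (limma, highest adjusted p = 0.515). The gap varied between serum batches, where serum cannot be told apart from pool or array, as each gap is between single arrays. At 6 h unstimulated it was -1.03, -0.20 and -0.60 in batches 1, 2 and 3, and at 24 h it was -0.09, 0.30 and -0.10. At 24 h the HMOX1 difference thus did not pass (95% interval -0.46 to 0.54), whereas BACH1 was called lower in B7.10.

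ALAS1 at 6 h stimulated read 8.0, 8.11 and 7.70 in DT40 and 7.54, 7.61 and 7.63 in B7.10, without overlap. Over the 3 conditions it differed by -0.19 ± 0.05 (limma, adjusted p = 0.026), 1.14-fold lower in B7.10. It was -0.04 at 6 h unstimulated, -0.18 at 24 h and -0.35 ± 0.10 when stimulated, of which the last was called (limma, adjusted p = 0.0378). Without the arrays of disputed label the average was -0.21 (limma, adjusted p = 0.0695). It was also lost without DT40's batch 1 array at 6 h, its stimulated array of batch 1 or 2, B7.10's 6 h array of batch 3, its stimulated array of batch 1, or all of batch 1 or 2, at -0.18 to -0.16. The stimulated value lost its call without any 1 of 5 of the 6 stimulated arrays, DT40's of batch 3 being the exception, or without batch 1 or 2, at -0.36 to -0.26. It was also lost without the 2 disputed B7.10 arrays, both of them stimulated, at -0.40 (limma, adjusted p = 0.218). The FTH1 probe sets gave 0.00 to 0.05 over the 3 conditions, and the 95% interval of the brightest was -0.10 to 0.10.

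**Figure D3:**
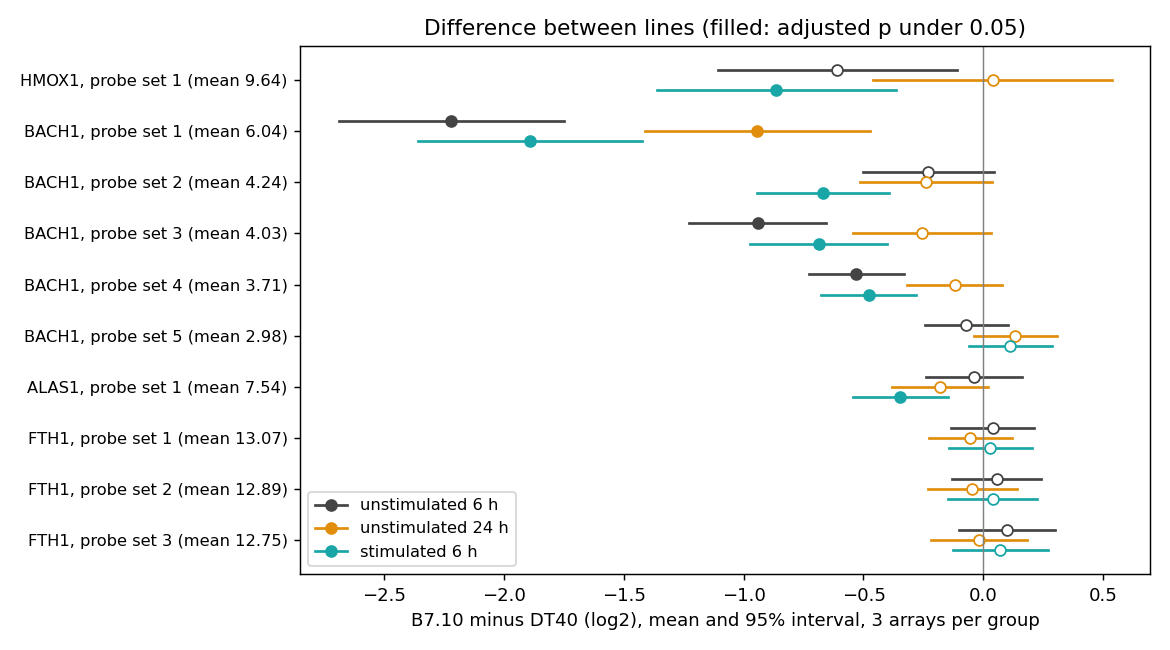
Difference of B7.10 from DT40 (horizontal axis, log2) for the 10 probe sets in 3 conditions, as the mean with its 95% interval from 3 arrays a group, filled where the adjusted p was under 0.05. Probe sets of a gene are ordered by mean level, given in the axis label, and the brightest BACH1 probe set lay at -2.22, -0.94 and -1.89.

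Serum itself was also compared, by an F test over the 3 batches in the same 18 arrays. HMOX1 came nearest to a call (limma, adjusted p = 0.0744), and no probe set of the 4 genes passed, where 0.776% of all probe sets did. The B7.10 arrays of batch 2 had the highest HMOX1 of that line in each of the 3 conditions.

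B41-13 and B46-5 ask which differences return when human BTK, active or kinase inactive, is put back. Their arrays were compared with the others of serum batch 1, and, as no pool was repeated, the error of a line comparison came from how much the lines' differences varied among the 4 conditions. Averaged over these conditions, HMOX1 stood at 10.37 ± 0.67 (SD, n = 4 arrays) in B41-13, 10.26 ± 1.00 in DT40, 8.86 ± 0.58 in B7.10 and 8.75 ± 0.69 in B46-5. B41-13 and DT40 lay within each other's spread, as did B7.10 and B46-5.

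HMOX1 was higher in B41-13 than in B7.10 by 1.51 ± 0.31 (limma, adjusted p = 0.00313), 2.85-fold, and 10.8% of probe sets passed. The single-array differences were 1.38 at 6 h, 0.63 at 24 h, 2.51 at 2 h stimulated and 1.52 at 6 h stimulated. All arrays of this comparison were of serum batch 1. HMOX1 of B7.10 was lower there than in batches 2 and 3 at 6 h, 9.27 against 10.12 and 9.61. At 6 h stimulated it was also lower there, 9.34 against 10.46 and 9.65, but not at 24 h, 8.75 against 9.24 and 8.56. B41-13 had no array in batches 2 and 3, so the size of its difference there is not known. B41-13 differed from DT40 by 0.11 ± 0.31 (95% interval -0.54 to 0.77; limma, adjusted p = 0.871, with 12.8% of probe sets called). B46-5 differed from B7.10 by -0.11 ± 0.31 (95% interval -0.77 to 0.54; limma, adjusted p = 0.918, with 7.05% called).

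The HMOX1 difference of B46-5 from DT40 was -1.51 ± 0.31 (limma, adjusted p = 0.00277), where 11.4% of probe sets passed. B41-13 was above B46-5 by 1.62 ± 0.31 (limma, adjusted p = 0.00153), where 11.1% passed. The 2 lines with an active kinase, DT40 and B41-13, were together 1.51 ± 0.22 above the 2 without (limma, adjusted p = 9.71e-05), a grouping taken from the genotypes but chosen after values were seen. In that comparison 12.7% of probe sets passed. Leaving out any one of the 16 arrays kept each of these calls.

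Marker lists of other cells also differed between the lines. The summed signal of 10 myeloid markers was 685 to 1354 in DT40, 931 to 1320 in B41-13, 659 to 890 in B7.10 and 606 to 676 in B46-5. B46-5 thus lay below DT40 and B41-13 on every array, and B7.10 below B41-13. Of that list 6 were above background, and LYZ, MARCO, TLR4 and C1QB were not. CTSS had the highest mean, 8.87, and CYBB the widest range over the arrays, 3.61 to 9.04, so the sum weighs these genes most. The 8 T-cell markers summed to 5362 to 5539 in B46-5, above the 3452 to 5151 of the other lines, with 5 above background and CD4, CD28 and TRAT1 not. Nearly all of this sum came from CD3D, with a mean of 12.05, as the next highest, CD8A, averaged 5.22. The T-cell difference thus reflects CD3D rather than the list. The 10 fibroblast markers summed to 396 to 450 in B41-13 and 369 to 426 in B46-5, below the 546 to 715 of DT40. The 11 B-cell markers summed to 13383 to 14525 in B41-13, above the 9054 to 12581 of DT40 and the 12342 to 13124 of B46-5. Those of B7.10 overlapped with B41-13, at 10970 to 13874. The B-cell list includes BTK, the disrupted gene, and the bright CD74 ranged from 10.23 to 12.52, so the sum need not reflect the list as a whole. The part of these lists in the line differences was not tested.

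BACH1 followed another order. Over the same 4 conditions its brightest probe set stood at 7.09 ± 0.85 (SD, n = 4 arrays) in DT40, 5.92 ± 1.30 in B41-13, 5.88 ± 0.64 in B46-5 and 5.40 ± 0.70 in B7.10. The difference from DT40 was -1.17 ± 0.20 in B41-13 (limma, adjusted p = 0.000396) and -1.21 ± 0.20 in B46-5 (limma, adjusted p = 0.000302). The difference from the knockout did not pass, with 0.52 ± 0.20 in B41-13 (limma, adjusted p = 0.113) and 0.48 ± 0.20 in B46-5 (limma, adjusted p = 0.186). It did pass in B41-13 without the 24 h array of B7.10, at 0.69 (limma, adjusted p = 0.0361), or of B41-13, at 0.68 (limma, adjusted p = 0.0464), and in B46-5 without the 2 h array of B41-13, at 0.48 (limma, adjusted p = 0.0332). Between B41-13 and B46-5 the difference was 0.03 ± 0.20 (95% interval -0.38 to 0.44). So BACH1 of B41-13 was called below DT40, whereas its HMOX1 was not. In the grouping by active kinase used for HMOX1, BACH1 was called as well, higher with an active kinase. This grouped call rests mainly on the high level of DT40, as B41-13 and B46-5 stood at 5.92 and 5.88. The grouped BACH1 difference was 0.72 to 0.95 in the fits that each left out 1 of 16 arrays (limma, highest adjusted p = 0.00106).

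The ALAS1 difference of B46-5 from DT40 was -0.39 ± 0.10 (limma, adjusted p = 0.0153), and its level over 4 conditions was 7.70 in DT40, 7.56 in B41-13, 7.42 in B7.10 and 7.31 in B46-5. Adjacent lines in that order did not pass, with 0.15 ± 0.10 between DT40 and B41-13 (limma, adjusted p = 0.426). Grouped by active kinase, ALAS1 was called higher in DT40 and B41-13, at 0.22 to 0.31 with 1 of 16 arrays left out. That call was lost in 4 of these fits (limma, highest adjusted p = 0.0521) and without the disputed arrays, at 0.21 (limma, adjusted p = 0.133). Without the 3 disputed arrays the B46-5 difference from DT40 was -0.34 (limma, adjusted p = 0.142), and it lost its call without DT40's 2 h array, DT40's stimulated 6 h array or that of B46-5 (limma, highest adjusted p = 0.0897). FTH1 was slightly lower in B41-13. Its brightest probe set read 12.71, 12.80, 12.82 and 12.95 there at 6 h, 24 h, 2 h stimulated and 6 h stimulated, against 13.24, 13.07, 12.85 and 13.24 in B7.10. The difference was -0.28 ± 0.08 from B7.10 (limma, adjusted p = 0.0407) and -0.29 ± 0.08 from DT40 (limma, adjusted p = 0.0267), and the other 2 FTH1 probe sets did not pass. Without the disputed arrays the difference from B7.10 was -0.29 (limma, adjusted p = 0.105), and 9 of the 16 single arrays ended the call when left out (all except the 2 h arrays, DT40 at 24 h and stimulated, and B46-5 at 24 h). The difference from DT40 lost its call without DT40's 6 h or 2 h array or without B41-13's 6 h, 24 h or stimulated 6 h array, at -0.30 to -0.22, without the disputed arrays, at -0.31 (limma, adjusted p = 0.0732), and after cyclic loess, at -0.28 (limma, adjusted p = 0.0659).

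Stimulation with IgM (M4) was compared at 6 h with 3 arrays a group. None of the 4 genes was called in DT40, where 0.0443% of probe sets passed, or in B7.10, where 0 passed by limma, 6419 had an unadjusted p under 0.05, 616 passed with the serum block and 1 passed after cyclic loess. In DT40, HMOX1 gave 0.40 ± 0.24 (limma, adjusted p = 0.777) and BACH1 0.12 ± 0.22 (limma, adjusted p = 0.96). ALAS1 gave 0.50 ± 0.10 (limma, adjusted p = 0.079). It was called in the fit with serum as a block (limma, adjusted p = 0.0388) and without DT40's stimulated array of batch 3, at 0.62 (limma, adjusted p = 0.00568). In B7.10, BACH1 gave 0.44 ± 0.22 (limma, adjusted p = 0.325) and HMOX1 0.14 ± 0.24 (limma, adjusted p = 0.813). The other BACH1 probe sets did not share a direction there. The second gave -0.32, and the third, the fourth and the fifth gave 0.40, 0.18 and 0.03. None of them passed, and each was near background in stimulated B7.10.

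At 2 h of stimulation each line had 1 array in serum batch 1, and no unstimulated 2 h sample was analysed here. The comparison with 6 h unstimulated therefore changes time and stimulus together, and their effects cannot be told apart. BACH1 was higher at 2 h in each of the 4 lines. It went from 7.01 to 8.18 in DT40, from 4.84 to 6.40 in B7.10, from 5.45 to 7.78 in B41-13 and from 5.77 to 6.80 in B46-5. These are the highest BACH1 values of each line. Over the lines the difference was 1.52 ± 0.20 (limma, adjusted p = 0.000118), 2.87-fold, and 7.96% of probe sets passed.

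Of the 5 BACH1 probe sets 3 were called higher at 2 h stimulated than at 6 h unstimulated. The third was higher by 0.72 ± 0.13 (limma, adjusted p = 0.00227) and the fourth by 0.38 ± 0.09 (limma, adjusted p = 0.0103). The third was near background at 6 h in the lines other than DT40, so its difference may be understated. The fourth was above background only in DT40 at 2 h. From 2 h to 6 h of stimulation, BACH1 fell by 1.36 ± 0.20 (limma, adjusted p = 0.000287), where 7.16% of probe sets passed, and its 6 h stimulated level was 0.16 ± 0.20 above the 6 h unstimulated one (limma, adjusted p = 0.754), where 0.013% passed. A higher BACH1 level was thus seen at 2 h and was no longer called at 6 h.

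HMOX1 at 2 h stimulated differed from 6 h unstimulated in different directions in the lines. It went from 10.30 to 11.15 in DT40 and from 10.65 to 10.60 in B41-13, but from 9.27 to 8.09 in B7.10 and from 9.31 to 7.99 in B46-5. The values of B7.10 and B46-5 were the lowest HMOX1 levels of the series, and that of DT40 was the highest. Over 4 lines the mean difference was -0.43 ± 0.31 (limma, adjusted p = 0.468).

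Fitted by kinase, HMOX1 in the 2 lines without an active kinase was lower at 2 h stimulated than at 6 h unstimulated by 1.25 ± 0.19 (limma, adjusted p = 0.0028), where 2.32% of probe sets passed. That call was lost without the 2 h array of B7.10 (limma, adjusted p = 0.0581) or the 6 h array of B46-5 (limma, adjusted p = 0.0672). In DT40 and B41-13 it gave 0.40 ± 0.19 (limma, adjusted p = 0.311). The difference between these 2 values was 1.65 ± 0.27 (95% interval 1.07 to 2.23, limma, adjusted p = 0.0157), and 0.263% of probe sets passed. This contrast was chosen after the values had been seen. Its call was lost without the disputed arrays (limma, adjusted p = 0.0634) and without any one of 6 of the 16 arrays (DT40, B7.10 and B46-5 at 6 h unstimulated and at 2 h), at 1.21 to 1.75. Without the DT40 array at 2 h the value for the lines with active kinase was -0.048, and without that of B41-13 it was 0.84 and was called (limma, adjusted p = 0.0202).

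For BACH1 the matching difference between the pairs of lines was 0.45 ± 0.31 (95% interval -0.20 to 1.10, limma, adjusted p = 0.796), which did not pass. ALAS1 in the 2 lines without active kinase was lower at 2 h stimulated than at 6 h unstimulated by 0.46 ± 0.11 (limma, adjusted p = 0.0412), at 7.02 in B7.10 and 6.97 in B46-5. Of the 3 FTH1 probe sets, the third was lower there by 0.64 ± 0.13 (limma, adjusted p = 0.0173) and the second by 0.51 ± 0.12 (limma, adjusted p = 0.0368). These ALAS1 and FTH1 differences rest on 1 array per line and time, and whether their calls hold with arrays left out was not examined. For ALAS1 and the third and the second FTH1 probe sets the difference between the pairs of lines did not pass (limma, adjusted p = 0.551, 0.237 and 0.523). From 2 h to 6 h of stimulation ALAS1 rose over the 4 lines by 0.49 ± 0.10 (limma, adjusted p = 0.00535).

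The same RNA quality measure was compared for the 2 h arrays. The actin excess was 0.18 in DT40, 0.80 in B7.10, 0.53 in B41-13 and 0.78 in B46-5 at 2 h, and 0.51, 0.76, 0.86 and 0.82 in the same order at 6 h unstimulated. The same excess for GAPDH lay between -0.31 and -0.22 at 2 h and between -0.27 and -0.10 in all 6 h unstimulated arrays. The actin excess was thus smaller at 2 h than at 6 h in DT40, B41-13 and B46-5, and slightly larger in B7.10. Its part in the 2 h results was not tested.

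**Figure D4:**
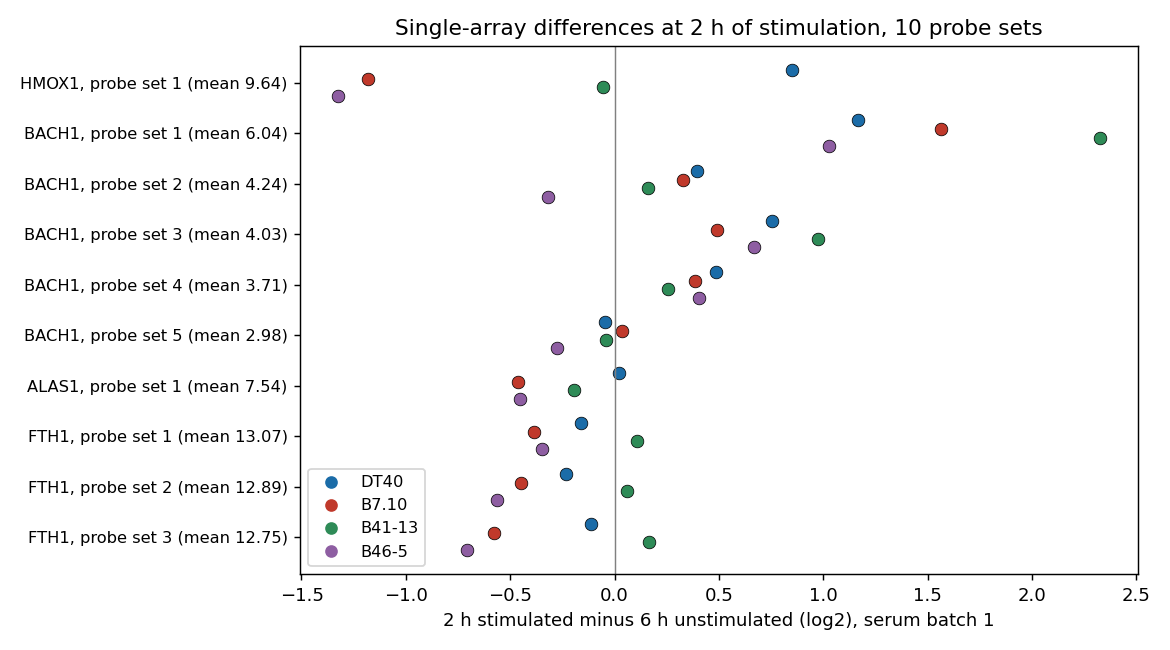
Difference between 2 h stimulated and 6 h unstimulated (horizontal axis, log2) for the 10 probe sets in the 4 lines of serum batch 1, with 1 point per line from single arrays and probe sets of a gene ordered by mean level. The brightest BACH1 probe set lay right of 0 in all lines, from 1.03 to 2.33, whereas HMOX1 lay at 0.85 in DT40 and -0.06 in B41-13 and at -1.18 and -1.32 in B7.10 and B46-5.

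The wider pathway was followed in 5 lists with 83 measured genes, the 4 members included, each gene by its brightest probe set. Members and lists were chosen with earlier results of these data known, so their counts beside those of all genes are only a description. In B7.10 against DT40, averaged over 3 conditions, 5 genes were higher and 26 lower, where 19.6% of all 13009 genes passed, 6.8% as higher and 12.8% as lower. The median difference of the 83 was -0.04, against 0.00 over all genes.

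In haem synthesis 1 of 11 genes was higher and 6 were lower. CPOX, the coproporphyrinogen oxidase, was lower in B7.10 at -0.54 ± 0.05 and the mitochondrial transporter ABCB10 at -0.43 ± 0.07. FECH, which inserts the iron, was lower at -0.24 ± 0.06 (limma, adjusted p = 0.00773). SLC25A38, a mitochondrial glycine carrier, was higher by 0.32 ± 0.06 (limma, adjusted p = 0.000976). The list had a median of -0.19. ALAS1, the first enzyme, was also called lower on average, at -0.19, but was at -0.04 at 6 h unstimulated. Its call was lost in 7 of 21 fits without 1 array or 1 serum batch, and without the disputed arrays.

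Among 12 genes of haem breakdown and handling, 1 was higher and 3 were lower. SLC48A1, a haem transporter of endosomes, was higher by 0.72 ± 0.08. The lower ones were HMOX1 and the haem-binding proteins HEBP1 and PGRMC1. HEBP1 gave -1.45 ± 0.20, with B7.10 near background so that the size may be understated, and PGRMC1 gave -0.35 ± 0.05. Among 18 iron genes 0 were higher and 5 lower. They included the ferrireductase STEAP3 at -1.19 ± 0.10, the ferroxidase HEPH at -0.79 ± 0.11 and transferrin (TF) at -0.31 ± 0.06.

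Among the 10 transcription factors and partners of the BACH and NRF2 system, 0 were higher and 2 lower, BACH1 itself and NFE2L2, the gene of NRF2, at -0.41 ± 0.08 (limma, adjusted p = 0.00208). Of 32 measured genes listed as NRF2-type oxidative stress targets, 3 were higher and 10 lower. Whether each of them, the metallothioneins included, is a target of NRF2 was not tested. The cystine carrier SLC7A11 was lower at -1.0 ± 0.09, GCLC, the catalytic subunit of the first glutathione-making enzyme, at -0.68 ± 0.09, and GPX4, which reduces lipid peroxides, at -0.37 ± 0.06. The metallothioneins MT3 and MT4 were higher by 1.43 ± 0.19 and 1.02 ± 0.13, and glutathione reductase (GSR) by 0.97 ± 0.08. Members of this list thus passed in both directions.

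**Figure D5:**
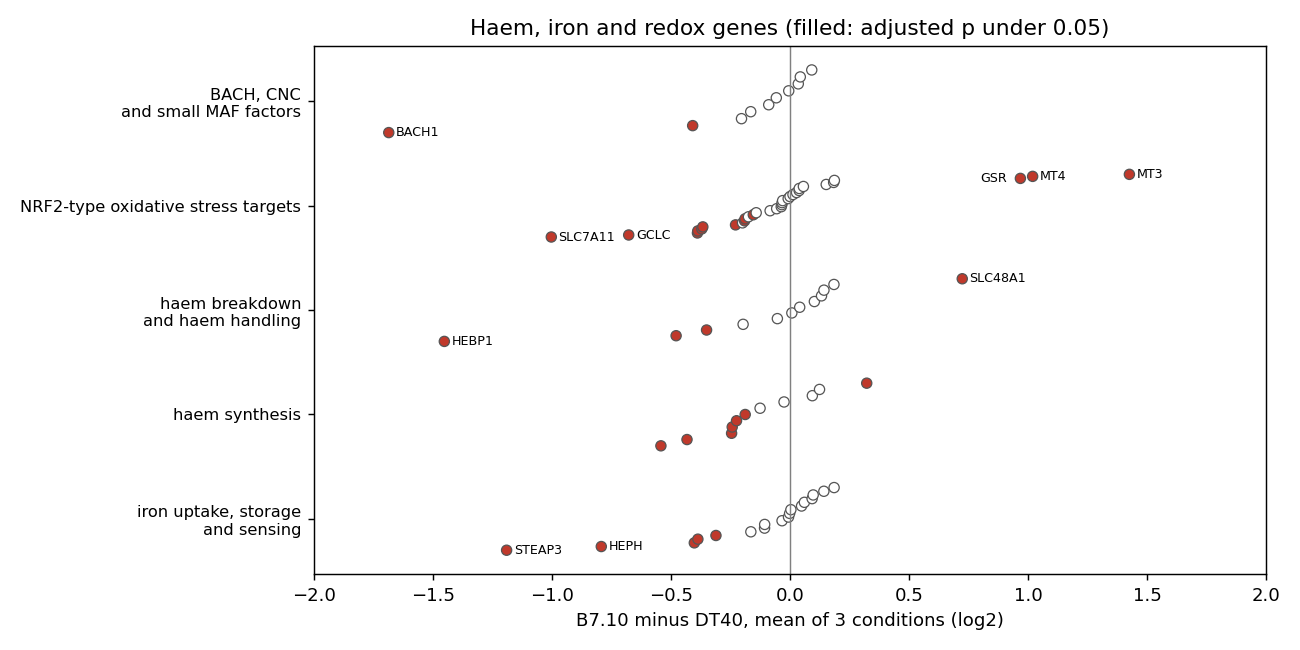
Difference of B7.10 from DT40, averaged over 3 conditions (horizontal axis, log2), for the 83 measured genes of 5 lists, with 1 point per gene and filled points for an adjusted p under 0.05. Of these genes 5 were higher and 26 lower, BACH1 being farthest to the left at -1.68 and MT3 farthest to the right at 1.43.

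Over 24 h in DT40, 5 of the 83 genes fell and 0 rose, where 0.753% of all genes passed. The 5 include the members HMOX1 and BACH1, chosen with earlier results known, so the count is no test of the lists. HMOX1 and BACH1 were joined by SLC7A11 at -0.95 ± 0.16 (limma, adjusted p = 0.00985), by the thioredoxin reductase TXNRD1 at -0.97 ± 0.17 (limma, adjusted p = 0.0119) and by TSPO, a porphyrin-binding protein of the outer mitochondrial membrane, at -0.63 ± 0.10 (limma, adjusted p = 0.00654). TXNRD1 was near background at 24 h, so its fall may be understated. No iron gene passed, and the 2 with the smallest p were the transferrin receptor TFRC at 0.30 ± 0.14 and the ferritin receptor NCOA4 at -0.21 ± 0.10. In B7.10 0 of the 83 passed by limma, where 0.277% of all genes passed. At an unadjusted limma p under 0.05 there were 17 of the 83, where 4935 of all 38382 probe sets were under it. The smallest adjusted p there was that of TSPO, at -0.38 ± 0.10 (limma, adjusted p = 0.142), and in the fit with serum as a block HMOX1 passed.

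Against B7.10, 7 of the 83 genes were higher and 10 lower in B41-13, where 14.5% of all genes passed, and 7 were higher and 11 lower in B46-5, where 9.95% passed. BLVRA, the biliverdin reductase that acts on the product of HMOX1, was higher in B41-13 by 0.80 ± 0.11 (limma, adjusted p = 8.78e-05) and in B46-5 by 0.47 ± 0.11 (limma, adjusted p = 0.0129). HMOX2, the constitutive haem oxygenase, was lower in both, at -0.46 ± 0.13 (limma, adjusted p = 0.0309) and -0.48 ± 0.13 (limma, adjusted p = 0.034). Thus HMOX1 and HMOX2 differed in opposite directions in B41-13. SLC7A11 was higher in B41-13 by 0.92 ± 0.15. In B46-5 catalase (CAT) was lower at -2.06 ± 0.12, MT3 at -2.57 ± 0.12 and MT4 at -1.59 ± 0.11, and the small MAF gene MAFF was higher by 0.94 ± 0.14.

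At 2 h of stimulation 5 of the 83 genes were higher than at 6 h unstimulated and 4 were lower over the 4 lines. Together this was close to the 11% of all genes that passed. The higher ones included BACH1, MAFF at 0.60 ± 0.14 (limma, adjusted p = 0.0128) and NFE2L1, a relative of NRF2, at 0.69 ± 0.09 (limma, adjusted p = 0.000172). With them were SLC7A11 at 0.52 ± 0.15 (limma, adjusted p = 0.042) and the ferroxidase ceruloplasmin (CP) at 0.68 ± 0.11 (limma, adjusted p = 0.000698). The lower ones were HMOX2 at -0.79 ± 0.13 (limma, adjusted p = 0.00112), BLVRA at -0.47 ± 0.11 (limma, adjusted p = 0.0147), the pentose phosphate enzyme TALDO1 at -0.32 ± 0.08 (limma, adjusted p = 0.0176) and the mitochondrial iron carrier SLC25A37 at -0.31 ± 0.09 (limma, adjusted p = 0.0445).

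The genes whose levels most resembled each member were ranked by Pearson's r over the 28 arrays, among 9989 genes above background. They share lines, sera and arrays, so r is only a description. For HMOX1 the closest were SSR2, a subunit of the translocon-associated complex of the endoplasmic reticulum, at 0.859, PDIA6, a protein disulfide isomerase of the same compartment, at 0.836, and GNB4 at 0.834. With each line's mean removed, ZFAND2A led at 0.864, followed by JKAMP at 0.851 and PRRC2B at 0.826.

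For BACH1 the closest were ALDH18A1, which makes the proline precursor from glutamate, at 0.901, PACSIN2 at 0.891 and ASPH at 0.876, with PSAT1, an enzyme of serine synthesis, at 0.873. With line means removed ALDH18A1 stayed first at 0.906, followed by the neutral amino acid carrier SLC1A4 at 0.903 and PACSIN2 at 0.887. Pairs of members correlated less than these, which were picked as the highest of 9989 genes. HMOX1 and BACH1 correlated at 0.488 over arrays, where BACH1 ranked 734 for HMOX1, and at 0.416 with line means removed. ALAS1 and BACH1 correlated at 0.001 and -0.476. FTH1 correlated with HMOX1 at 0.202 over arrays and 0.547 with line means removed, and with ALAS1 at 0.416 and 0.531. The closest to ALAS1 was MICU3 at 0.821, and to FTH1 it was CDC25A at 0.843.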

How the data were processed

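The authors deposited log2 signals per probe set for 28 Affymetrix chicken arrays, made with RMA per the submitters' processing notes. The sources used here name no RMA version and do not say which arrays were normalised together. Array medians lay between 4.37 and 4.50 log2. Of 38535 probe sets, 153 controls were left out and 38382 tested. The platform table gave 1 symbol to 27168 of these, several to 177 and none to 11037.

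Groups came from the titles. DT40 and B7.10 at 6 h, 24 h and 6 h stimulated (18 arrays) were fitted as group means with limma 3.58.1 in R 4.3.3, with 12 residual degrees of freedom. For serum batch 1 a model with terms for line and for condition was fitted to 16 arrays, with 9, and for the kinase responses a kinase by condition term was added, with 6. P-values were adjusted by Benjamini-Hochberg over 38382 probe sets. The script was tested on simulated data. Tables and figures used Python 3.11.15, pandas 2.3.3 and matplotlib 3.10.9.

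The replicate number is the serum batch, which the labels describe as shared, so numbers pair samples. The median correlation of the arrays' deviations from their group means was 0.122 within batches (45 pairs) and -0.06 between batches (90 pairs).

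The 4 members and 5 lists were chosen with earlier results of these data known. All member probe sets were named. For each list and comparison, the genes eligible to be named were up to 3 called each way with the smallest adjusted p. Where none was called they were the 2 with the smallest p. Not all of these genes were named. Genes named for the 2 h comparison are all those called. Likeness used the 5 highest correlations. Alternatives were the serum block, a filter on the 40% dimmest probe sets, cyclic loess, trend and robust moderation, fits to the compared arrays alone, and fits without each array, each batch and the disputed arrays. Chosen after seeing the data were the kinase contrasts and the fits without the 24 h arrays of batch 3 and with the block but without disputed arrays. Sequences and gene positions were not analysed here.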

Additional observations from a re-analysis of the deposited data

Results flagged for a closer look

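Between lines with and without an active kinase, the HMOX1 difference of 2 h stimulated from 6 h unstimulated differed by 1.65 ± 0.27 log2 (limma, adjusted p = 0.0157). This was a test of the difference itself. As no unstimulated 2 h sample was analysed here, time and stimulus cannot be told apart. The result rests on single arrays of serum batch 1 and was chosen after the values had been seen. Its call was lost without the disputed arrays and in 6 of the 16 fits that left out 1 array.

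For the second and the fourth BACH1 probe sets, with means of 4.24 and 3.71, every serum batch of DT40 went one way and every batch of B7.10 the other. For the fourth the change from 6 h to 24 h was 0.41 log2 higher in B7.10 than in DT40 (limma, adjusted p = 0.784). For the second the change from 6 h unstimulated to 6 h stimulated was -0.44 log2 in B7.10 relative to DT40 (limma, adjusted p = 1.0). The tests of these differences did not pass, and the fourth was near background in both lines at both times.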

How the results depend on the processing

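Of 39 results on the 4 genes, 19 kept their direction and their side of the threshold under every alternative, among them BACH1 in B7.10 against DT40 averaged over conditions, at 6 h and at 6 h of stimulation (not at 24 h), and HMOX1 in B41-13 against B7.10, in B46-5 against DT40 and in B41-13 against B46-5. With the serum block, HMOX1 in B7.10 at 24 h was called at -0.82 (limma, adjusted p = 0.0312), and 1 list gene in place of 0 passed there. The block also called HMOX1 in B7.10 against DT40 at 6 h and ALAS1 at 6 h of stimulation in DT40, and it changed no other call of a member result. Over all probe sets it called 554 instead of 220 for DT40 at 24 h, 270 instead of 89 for B7.10 at 24 h, 616 instead of 0 for stimulation of B7.10 and 41 instead of 17 for that of DT40. The fits to serum batch 1 alone could take no serum block, as they held a single batch, and each line and condition there had 1 array. No alternative could leave that batch out, so the results of B41-13 and B46-5 that kept their side hold for batch 1 only.

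Without both 24 h arrays of batch 3, HMOX1 in B7.10 against DT40 was -0.46 and BACH1 at 24 h in DT40 was -1.09, neither called. Without disputed arrays, the HMOX1 kinase difference at 2 h (1.65), ALAS1 in B7.10 against DT40 on average (-0.21) and at 6 h of stimulation (-0.40), and FTH1 in B41-13 against B7.10 (-0.29) and DT40 (-0.31) were no longer called. Nor were ALAS1 in B46-5 against DT40 (-0.34) and in the lines with an active kinase against those without (0.21). HMOX1 and ALAS1 in B7.10 against DT40 at 6 h of stimulation were not called with trend and robust moderation or with only the arrays compared.

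Leaving out 1 array or 1 serum batch gave -1.53 to -1.39 for HMOX1 at 24 h in DT40, -0.67 to -0.30 for HMOX1 and -0.23 to -0.16 for ALAS1 in B7.10 against DT40, and -1.37 to -0.96 for BACH1 at 24 h in DT40, whose call was lost in 5 of 21 such fits. It gave 1.21 to 2.10 for the HMOX1 kinase difference, -0.34 to -0.20 for FTH1 in B41-13 against B7.10, and -0.048 to 0.84 for HMOX1 at 2 h in lines with an active kinase. The cause of these changes was not tested. With 3 arrays a group or 1, the number of arrays limits every value, and BACH1 probe sets near background can show little change.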
